A study of Homo sapiens with 2 samples.

Results

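The 8 genes described here are RPTOR, RICTOR and AKT1S1, subunits of the mTOR complexes, and TSC1, TSC2, STK11, DEPDC5 and DDIT4, which act upstream as brakes on mTOR. They were chosen by name, with their entries in the deposited tables already known, so those entries are a description and carry no test. All 8 were found, among 5851 gene symbols named in the tables in all. The data came from RNA immunoprecipitation and sequencing in HL-60 cells, an established line of human promyelocytic leukaemia that serves as a neutrophil precursor model. RNA pulled down with an antibody to ALKBH5, an enzyme that removes the N6-methyladenosine mark from RNA, was sequenced (IP, 80% of the lysate) beside RNA of the whole lysate (input, 10%), with 1 library of each. The labels name no treatment; both libraries carry "ALKBH5" as their genotype label, and have the prefix "Ctrl" in their library names; a further 10% went to a rabbit IgG control, which was not analysed here. Title and library name disagree on which of the libraries is IP and which is input, and no value below depends on which is right.

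mTOR is a protein kinase that joins growth factor, nutrient and energy signals to cell growth. As mTORC1, built on RPTOR, it drives protein synthesis and holds autophagy back, in part by phosphorylating ULK1. As mTORC2, built on RICTOR, it phosphorylates AKT. The TSC1 and TSC2 proteins switch off RHEB, the GTPase that activates mTORC1, and STK11 and DDIT4 bring energy and stress signals to the same point. DEPDC5 brings amino acid signals by another branch, the Rag GTPases. The series title links ALKBH5 to autophagy in neutrophils, which is the setting in which these genes are of interest.

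The tables hold no expression level and nothing per library. A GO and a KEGG table give, for each listed term, the genes with peaks that it contains ("named" below), and another table sets gene symbols beside families of RNA-binding proteins. Only 40 of the 349 listed terms had a corrected p under 0.05 in the authors' deposited table. A gene with a peak but in no listed term would not be seen in the first pair of tables. Of 8 HL-60 marker genes 4 were named there (MPO, PRTN3, CD33 and CEBPA) and ELANE, AZU1, CTSG and CEBPE were not. Of 8 markers of other lineages 2 were named, EPCAM and PECAM1. Among all 20056 protein-coding genes of the reference, 25.9% had an entry in GO or KEGG and 6.14% in the family table. Of the protein-coding genes with a GO or KEGG entry, 20.1% were in the family table, and 22.6% of all symbols with such an entry were in a KEGG pathway.

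All 8 genes had a GO or KEGG entry, 6 of them in a KEGG pathway, and 5 were in the family table. Since the genes were chosen from these tables, nothing is read from those counts against the shares above. The 8 genes were spread over 39 of the 349 listed terms, 36 of 311 in GO and 3 of 38 in KEGG. By kind these were 19 processes, 9 compartments, 8 molecular functions and 3 pathways. No listed term had TOR, AMPK or PI3K in its name.

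RPTOR, the scaffold that brings substrates to mTORC1, lies on chromosome 17 from 80544838 to 80966368 (RefSeq, GRCh38.p14). It was named in 13 terms, 11 in GO and 2 in KEGG. Its narrowest term was positive regulation of transcription by RNA polymerase III, with 11 entries on 11 background genes in the authors' deposited table, followed by 14-3-3 protein binding with 22 entries on 32. RPTOR was also named in the term cytoplasmic stress granule, with 45 entries on 73 background genes and 0.700 as the corrected p of the authors' deposited table. A clone-named transcript, CTD-2561B21.4, carried the gene identifier of RPTOR and appeared in the same 13 terms. The other 7 genes were alone on their identifiers, against 11.9% of all symbols that shared one.

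RICTOR, which defines mTORC2, lies on chromosome 5 from 38937920 to 39074399. It was named in 4 terms, the fewest of the 8 genes, and in no KEGG pathway. The terms were cytosol, protein kinase binding, viral process and peptidyl-serine phosphorylation. The last had 84 entries on 161 background genes and 0.915 as the corrected p of the authors' deposited table. AKT1S1 encodes PRAS40, an inhibitor of mTORC1 that is released when AKT phosphorylates it, and lies on chromosome 19 from 49869033 to 49878356. Its 6 terms were all among those of RPTOR: cytosol, cytoplasm, nucleoplasm, regulation of cellular response to heat, and the KEGG pathways of autophagy and of longevity regulation across species.

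The kinase itself was named as well, and the subunit common to both complexes was not. MTOR was in 27 terms, 20 in GO and 7 in KEGG, and in no pairing of the family table. An antisense transcript, MTOR-AS1, carried the identifier of MTOR and stood in the same 27 terms, so its terms are those of the kinase gene. MTOR shared 16 of its terms with at least 1 of the 8 genes. The other 11 included negative regulation of autophagy (31 entries on 50 background genes), positive regulation of translation (44 on 73) and the KEGG pathways HIF-1 signaling, Insulin resistance and Acute myeloid leukemia, all by the authors' deposited table. Of these 11 only mitochondrial outer membrane had a corrected p under 0.05 in the authors' deposited table (6.95e-04, 119 entries on 166 background genes). MLST8, the small subunit of both complexes, was named in no table.

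TSC1 and TSC2 form the complex that switches off RHEB, with TSC2 as the GTPase-activating subunit. TSC1 lies on chromosome 9 from 132891349 to 132945378 and was named in 12 terms. TSC2 lies on chromosome 16 from 2047985 to 2089491 and was named in 16. They shared 9 terms, among them neural tube closure, regulation of cell cycle and negative regulation of cell population proliferation. TSC2 alone of the pair was in GTPase activator activity, with 157 entries on 268 background genes and 0.0287 as the corrected p of the authors' deposited table. It was also in the KEGG pathway Thyroid hormone signaling, with 63 entries on 119 and 0.268 as the corrected p of the authors' deposited table. TSC1 alone was in protein N-terminus binding, with 64 entries on 104 background genes and 0.369 as the corrected p of the authors' deposited table.

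DEPDC5 is the GTPase-activating subunit of GATOR1, which turns off the Rag GTPases when amino acids are scarce, and lies on chromosome 22 from 31753968 to 31908033. It was named in 5 terms and in no KEGG pathway. It shared GTPase activator activity and positive regulation of GTPase activity with TSC2, and with no other of the 8. STK11 encodes LKB1, the kinase that activates AMPK when energy is low, and lies on chromosome 19 from 1205778 to 1228431. Its 18 terms were the most of the 8 genes. They included response to ionizing radiation (31 entries on 45 background genes) and cellular response to DNA damage stimulus (146 on 248, corrected p 0.0392) in the authors' deposited table, neither of which named another of the 8. STK11 was also the only one of the 8 in the GO term autophagy, with 119 entries on 126 background genes in the authors' deposited table. These entries were on 60 distinct identifiers, 47.6% of the background genes. DDIT4 encodes REDD1, a stress-induced protein that curbs mTORC1 through the TSC complex, and lies on chromosome 10 from 72273924 to 72276036. It was named in 5 terms, and shared 14-3-3 protein binding with RPTOR and mitochondrion with STK11.

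**Figure D1:**
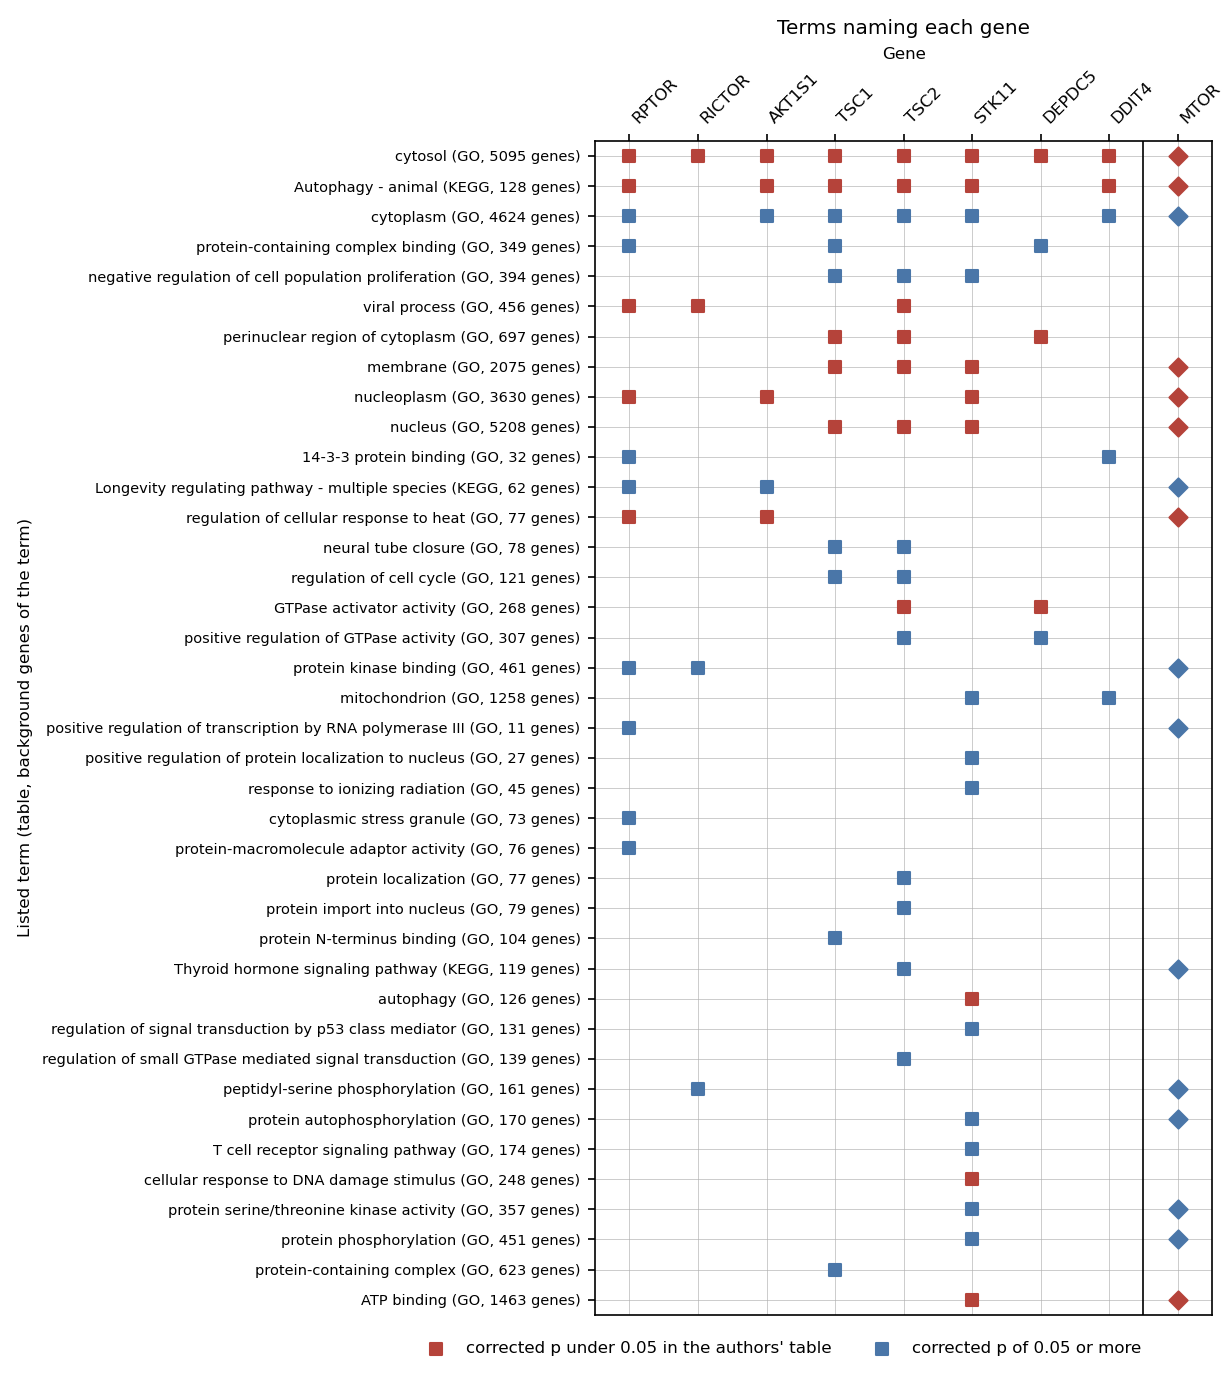
Each row is one of the 39 listed terms that named at least 1 of the 8 genes, with its table and its number of background genes, and each column is a gene; MTOR stands apart at the right, for comparison. A mark means that the term named the gene, red where the authors' corrected p was under 0.05 and blue elsewhere; cytosol is the only row with all 8 genes, and 20 rows hold 1 of them.

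Cytosol named all 8 genes, but it also named 43.9% of all symbols in the GO and KEGG tables. Cytoplasm named 6 of the 8 and 35.3% of all symbols. The KEGG pathway Autophagy - animal was the narrowest term with more than 3 of the genes: it named RPTOR, AKT1S1, TSC1, TSC2, STK11 and DDIT4, along with MTOR. It named 2.07% of all symbols, and 1.31% of the protein-coding genes with a GO or KEGG entry. Both shares include symbols listed under the identifier of AMBRA1. KEGG sets which genes belong to the pathway, so nothing is read from its 6 genes against these shares. Macroautophagy named none of the 8 and not MTOR, with 90 entries on 93 background genes and 2.58e-06 as the corrected p of the authors' deposited table. Those entries were on 37 distinct identifiers, 39.8% of its genes (exact 95% interval 29.8 to 50.5%). A further 7 terms each named 3 of the 8. These were protein-containing complex binding, negative regulation of cell population proliferation, viral process, perinuclear region of cytoplasm, membrane, nucleoplasm and nucleus.

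Of the 39 terms, 12 had a corrected p under 0.05 in the authors' deposited table, among the 40 of all 349 listed terms that did. The authors' deposited table gave the KEGG autophagy pathway 116 entries on 128 background genes, with 6.01e-09 as its corrected p. These came from 59 distinct identifiers, or 46.1% of the pathway (exact 95% interval 37.2 to 55.1%), mostly because 51 symbols in it carried the identifier of AMBRA1. Each deposited p goes with the count of entries. None was recomputed by distinct identifier, including those of autophagy and macroautophagy in GO, so these p-values are not read as enrichment of autophagy genes. Among the other terms with few background genes, regulation of cellular response to heat named RPTOR, AKT1S1 and MTOR, with 58 entries on 77 and 0.0484 as the corrected p of the authors' deposited table. It held 51 distinct identifiers, 66.2% of its genes (exact 95% interval 54.6 to 76.6%). GTPase activator activity, with TSC2 and DEPDC5, held 148 distinct identifiers, 55.2% (49.1 to 61.3%). Viral process, with RPTOR, RICTOR and TSC2, had 7.46e-07 as the corrected p of the authors' deposited table and 268 distinct identifiers on 456 genes, 58.8% (54.1 to 63.3%). These intervals cover counting error only. No share by distinct identifier was computed over all background genes, so nothing is read from these shares. All 39 terms had an uncorrected p of 0.0461 or less in the authors' deposited table. Terms with lower shares may therefore not have been listed, which was not tested.

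The number of terms per gene differed widely among the 8. The median was 9 terms, with a range of 4 to 18, against a median of 4 and a range of 1 to 40 over all 5614 symbols of the GO and KEGG tables. STK11 had more terms than 96.3% of those symbols, TSC2 than 95.1%, RPTOR than 90.1% and TSC1 than 88.0%. AKT1S1 had more than 59.7%, DEPDC5 and DDIT4 more than 50.8% each, and RICTOR more than 40.0%. A number of terms follows how fully a gene is annotated as well as which terms were listed, and is no measure of binding.

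**Figure D2:**
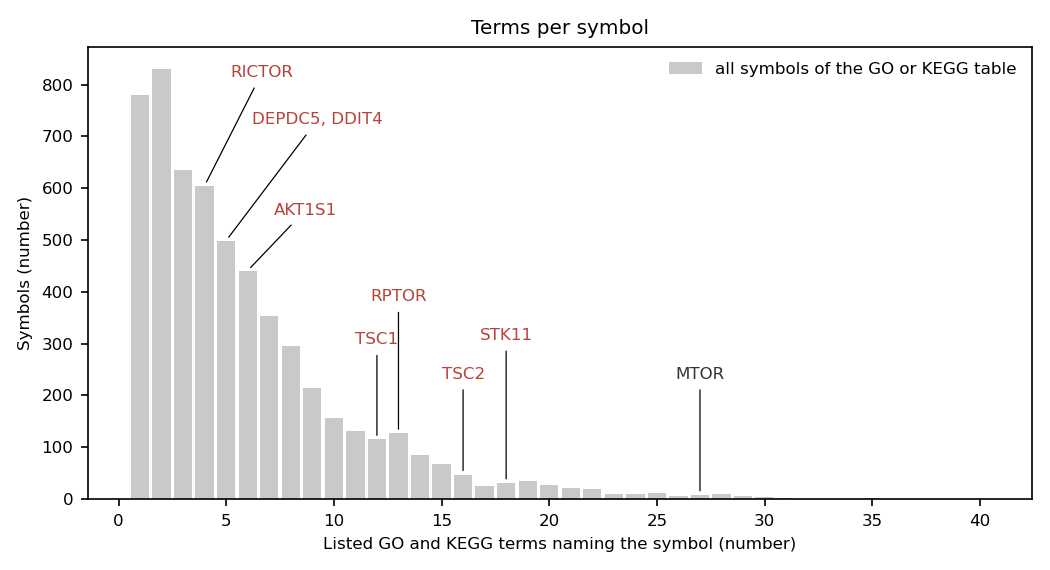
Grey bars count the symbols of the GO and KEGG tables (vertical axis) by the number of listed terms that named them (horizontal axis); the 8 genes are marked in red and MTOR in dark grey. RICTOR, DEPDC5, DDIT4 and AKT1S1 lie at 4 to 6 terms, close to the median of 4, while TSC1, RPTOR, TSC2 and STK11 lie at 12 to 18.

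Likeness between genes was taken as the Jaccard index, the number of terms that 2 genes share over the number that name either. Nearest symbols were sought only among those in at least 5 terms (2762 of 5614), or, for RICTOR, in at least 4 (3367). Among the 8 genes the index was highest for TSC1 and TSC2 (0.474, 9 of 19 terms) and for RPTOR and AKT1S1 (0.462, 6 of 13). It was lowest for STK11 and DEPDC5 (0.0455, 1 of 22 terms) and for RICTOR and STK11 (0.0476, 1 of 21). Of the symbols so compared over the 349 terms, TSC2 was the nearest to TSC1, and TSC1 to TSC2. The symbols next to TSC1 were NF2 (0.467) and UBA3 (0.462), and those next to TSC2 were RAPGEF2 and SIPA1 (0.389 each). RPTOR was nearest to the transcript on its own identifier, then to AKT1S1 and to TRIM6 (0.429).

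RICTOR was nearest to SHC1 (0.600, 3 of 5 terms) and TRIM6 (0.375, 3 of 8), and 8 symbols tied for the next place. DEPDC5 was nearest to SEC23B (0.667, 4 of 6 terms), PREX1 (0.571) and SEC23A (0.500). STK11 was nearest to PRKD2 (0.450) and FYN (0.435), and 3 symbols, MAPKAPK5 among them, tied for the next place (0.421). AKT1S1 had HSPH1 (0.400) after RPTOR and its clone-named partner. For DDIT4, 12 symbols tied at the highest index within that limit, 0.429, 3 of 7 terms. The first in alphabetical order were AP001062.7, ATG13 and C21orf2, and the tie singles out none of them. All these values describe annotation in the listed terms, and not levels.

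The family table pairs gene symbols with RRM (RNA recognition motif), CSD (cold shock domain), PUF (Pumilio) or a combined CCHC zinc finger and RRM family. The sources used here do not say how the pairs were made. RPTOR and TSC2 were paired with all 4 families, as were 62.2% of the 1348 symbols of that table. RICTOR and TSC1 were paired with CSD, PUF and RRM and not with the CCHC family, a pattern of 343 symbols (25.4%). STK11 was paired with CSD and RRM alone, a pattern of 107 symbols (7.94%). AKT1S1, DEPDC5 and DDIT4 were in no pair, nor were MTOR and MLST8. The 5 paired genes thus had RRM and CSD in every case, PUF in 4 and the CCHC family in 2. Over the whole table every symbol had RRM, 99.6% of symbols had CSD, 87.8% had PUF and 66.2% had the CCHC family. The genes were chosen with their pairs known, so nothing is read from the counts against those shares.

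**Figure D3:**
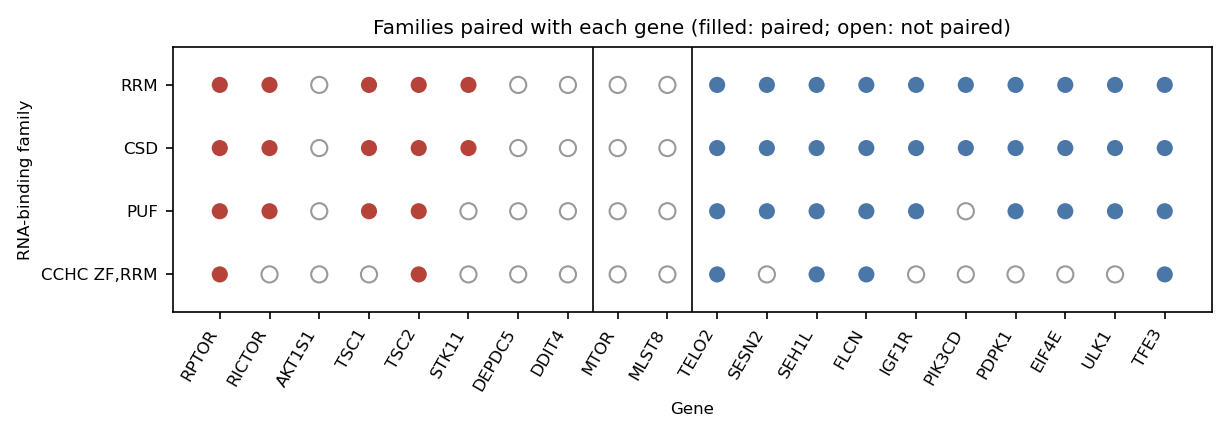
Filled circles mark the families (vertical axis) paired with each gene (horizontal axis): the 8 genes in red at the left, then MTOR and MLST8, then 10 other genes of the mTOR lists that were in the family table and also had a GO or KEGG entry, in blue. RPTOR and TSC2 have 4 filled circles, STK11 has 2, and the columns of AKT1S1, DEPDC5, DDIT4, MTOR and MLST8 are empty.

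Genomic span was a property that the choice of genes did not use. In the family table, STK11, TSC2, TSC1, RICTOR and RPTOR span 22.7, 41.5, 54.0, 136.5 and 421.5 kb of the genome, introns included. DDIT4 and AKT1S1, which were in no pair, span 2.11 and 9.32 kb, but DEPDC5, also in no pair, spans 154.1 kb, so the groups overlap. Over all protein-coding genes with such entries in GO or KEGG, the median span was 42.1 kb for those in the family table and 33.4 kb for those not in it. With 5 genes against 3 chosen by name, no test was made.

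The rest of the pathway was examined with 6 lists that hold 94 genes, the 8 among them. Of the 94 genes 46 had a GO or KEGG entry (48.9%, exact 95% interval 38.5 to 59.5%). Without the 8 genes, 38 of 86 were (44.2%, interval 33.5 to 55.3%), against 25.9% of all protein-coding genes. In the family table the lists held 16 of 94 genes (17.0%), or 11 of 86 without the 8 (12.8%, interval 6.56 to 21.7%), against 6.14%. In the KEGG autophagy pathway they held 13 of the 86 (15.1%), against 0.339% of all protein-coding genes. The second share includes genes listed under the identifier of AMBRA1. KEGG sets which genes belong to the pathway, and the lists were built around mTOR, so nothing about peaks is read from this gap. Since related genes enter a list through the same terms, they are not independent, and no test of the lists was made. A gene can have a GO or KEGG entry only if it is annotated to a listed term. Annotation was not matched between the lists and all protein-coding genes, so these shares are no measure of binding.

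Of 11 subunits and assembly factors of the mTOR complexes, 6 (54.5%) were named in the GO or KEGG table, against 25.9% of all protein-coding genes. Beside MTOR, RPTOR, RICTOR and AKT1S1 these were TELO2 and TTI1, which help assemble mTOR and related kinases. RPTOR, RICTOR and AKT1S1 were chosen from these tables, so nothing is read from the count. TELO2 was named in 11 terms and paired with all 4 families, whereas TTI1 was named in 1 term and in no pair. DEPTOR, MAPKAP1, PRR5 and PRR5L, further subunits, were in no table, like MLST8.

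Among 20 genes of the TSC complex and of energy or stress sensing, 9 had a GO or KEGG entry. TBC1D7, a further TSC subunit, was in 5 terms, and STRADA, the pseudokinase that activates STK11, in 8. The AMPK subunits PRKAA1 and PRKAG1 were in 19 and 16 terms, while the other 5 AMPK subunit genes were in no table. SESN2, a stress-induced leucine sensor, was in 5 terms and was paired with 3 families. CAB39, the scaffold of the STK11 complex, SESN1 and SESN3 were in no table.

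Around DEPDC5, 7 of 14 genes (50.0%) in the list of GATOR1, KICSTOR and GATOR2 had a GO or KEGG entry. The share of all protein-coding genes was 25.9%. That list also holds CASTOR1 and CASTOR2, which are not subunits of these complexes, and CASTOR2 is among the 7. DEPDC5, also among the 7, was chosen from these tables, so nothing is read from the count. NPRL3 of GATOR1 was in 2 terms, and NPRL2, its other subunit, was in no table. WDR24 of GATOR2 was in 3 terms, and SEH1L and SEC13, which are also nuclear pore proteins, were in 17 and 18.

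The lysosomal arm had the lowest count of the 6 lists. Of 15 genes in the Rag, Ragulator and RHEB list 3 had a GO or KEGG entry (20.0%, interval 4.33 to 48.1%): RRAGA, FLCN and FNIP1. The list also holds FLCN, FNIP1, FNIP2 and SLC38A9, which are outside the groups in its name. FLCN, part of the complex that acts on RRAGC and RRAGD, was in 12 terms and paired with all 4 families. RHEB, the direct target of the TSC complex, and the 5 LAMTOR genes were in no table. The share of all protein-coding genes, 25.9%, lies inside that interval.

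Of 16 genes on the insulin, PI3K and AKT side 9 (56.25%) had a GO or KEGG entry, against 25.9% of all protein-coding genes. KEGG autophagy named 8 of the 16 (50.0%), against 0.339% of all protein-coding genes. KEGG sets which genes belong to that pathway, so nothing about peaks is read from the 8. AKT1 was in 40 terms, the highest number of any symbol, and PIK3CD, the class I catalytic subunit rich in leukocytes, was in 22. In the mTOR target list, which is not limited to direct substrates of mTOR, 12 of 18 genes (66.7%) had such an entry. The share of all protein-coding genes was 25.9%, and annotation was not matched. ULK1, the autophagy kinase that mTORC1 restrains, was in 14 terms and paired with 3 families, and TFEB and TFE3, transcription factors for lysosomal genes, were in 6 and 4. EIF4E, the cap-binding protein, was in 15 terms, while EIF4EBP1, EIF4EBP2 and RPS6KB1, direct substrates of mTORC1, were in no table; RPS6KB2, a paralog of RPS6KB1, was in 13 terms, KEGG autophagy among them.

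**Figure D4:**
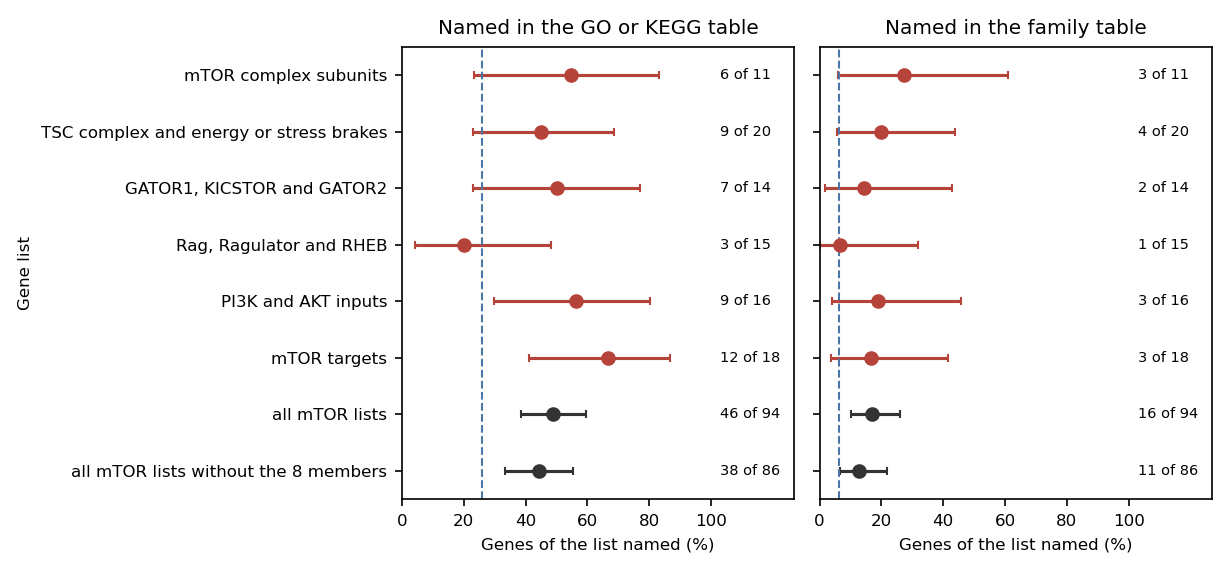
Points give the percentage of each list's genes with a GO or KEGG entry (left) and in the family table (right), with exact 95% binomial intervals and the counts at the right edge; dashed lines mark the share of all protein-coding genes, 25.9% and 6.14%. The upper 3 lists and the row of all lists include some or all of the 8 genes that were chosen from these tables, so their distance from the lines is no test. The mTOR target list is highest at the left (12 of 18), and the Rag, Ragulator and RHEB list is lowest in both panels (3 and 1 of 15).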

How the data were processed

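Per the labels' protocols, RNA from IP and input was made into stranded libraries, and per the submitters' processing notes the genome build was hg38; the sources used here do not give an aligner, peak caller or threshold. Per the file headers, the authors deposited counts of input entries and of background genes per term, a rich factor (a ratio), a p-value and a corrected p-value. The family table has no number. Read depth and peaks were not analysed here, so depth is unknown. The 349 terms were split into identifier and symbol pairs with Python 3.11.15 and pandas 2.3.3. Symbols were matched to RefSeq GRCh38.p14 by symbol, then by older symbols; 373 of 5851 had no match. Intervals are exact Clopper-Pearson (SciPy 1.17.1). The genes and lists were chosen with earlier results of these data known. Terms named hold 3 or more of the genes, have a corrected p under 0.05, are among a gene's 3 narrowest, or carry TOR, autophagy, AMPK, insulin or PI3K in their names; likeness gives the 3 nearest symbols. Terms described beyond that rule (cytoplasmic stress granule, Thyroid hormone signaling, those of MTOR) were chosen after their values were seen. No test between libraries was possible. A few listed genes are not reported here by name.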

Additional observations from a re-analysis of the deposited data

How the results depend on the processing

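The 8 genes stayed named in GO alone (8) and in terms with a corrected p under 0.05 (8). Neither setting could lose a gene, because the GO term cytosol named all 8. Its corrected p in the authors' deposited table was 5.90e-11. The 8 were also named without terms of more than 1000 background genes (8), a setting chosen after seeing the data. In KEGG alone 6 were named, and 7 were on an identifier of their own. The 5 genes of the family table became 2 when all 4 families were required. The median of 9 terms per gene became 4.5 with only terms of corrected p under 0.05 and 1 in KEGG alone, where the median over all symbols was 2 and 0. The 116 entries of KEGG autophagy became 59 by distinct identifier. The 46 list genes became 45 with symbols as written and 41 without the broad terms, and stayed 46 without autophagy terms. No paired analysis was possible because no table has a value per library. Without peak positions, a peak shared by overlapping genes cannot be assigned, and an unnamed gene may still have had a peak.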

Other observations

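Some of the genes share genomic sequence with a neighbour, by the RefSeq table of GRCh38.p14. TSC2 overlaps PKD1, on the opposite strand, by 784 bases, and PKD1 was named in the GO or KEGG table and in the family table. AKT1S1 overlaps TBC1D17 by 655 bases, and TBC1D17 was in both kinds of table while AKT1S1 was in no family pair. STK11 overlaps CBARP, on the opposite strand, by 145 bases, and CBARP was in the family table only. RICTOR overlaps OSMR, on the opposite strand, by 7660 bases, and OSMR was in no table. MTOR overlaps MTOR-AS1 by 5641 bases and ANGPTL7, which was in no table, by 6627. The library kit keeps strand, per the labels' protocols, but the sources used here do not say whether peaks were assigned by strand, and the part of these overlaps in the listing was not tested.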
